A study of Mus musculus with 22 samples.

Results

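The 10 genes described here encode serum amyloids, pentraxins and other acute-phase proteins of the mouse: Saa1, Saa2, Saa3, Saa4, Apcs, Crp, Orm1, Orm2, Lcn2 and Hp. They were chosen by name, all 10 were found among the 55291 genes of the deposited tables, and their levels were read in every one of 22 livers. The livers came from male WT C57BL/6 pups that were injected intravenously on postnatal day 1 and were collected 36 hours later, and every group shares this age, genotype, route and time. The 6 groups are named here as in the labels: PBS (n = 4), the vehicle; AAV9.empty (n = 4), capsids without a vector genome; rAAV9.CB.EGFP (n = 4), a vector that expresses a green fluorescent protein from the CB promoter, which combines a viral enhancer with the chicken β-actin promoter and is active in many cell types; rAAV9.CB.ST3GAL5 (n = 3), the same promoter with the human cDNA of GM3 synthase; rAAV9.CB.ST3GAL5.E332K (n = 3), whose label adds E332K to that cargo; and rAAV9.Syn1.ST3GAL5.miR122BS (n = 4), in which the neuronal Syn1 promoter and binding sites for miR-122, a microRNA abundant in hepatocytes, restrict the same cargo away from the liver. The study asked why systemic delivery of the CB-driven vector was not tolerated and whether the restricted design avoids this. The labels do not say whether the pups of a group came from separate litters, so each p-value is set against the variation among these individual livers, which may be partly technical.

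The acute phase is the change in plasma proteins that follows injury or infection. Hepatocytes make most of these proteins, and cytokines of the IL-6 family, acting through STAT3, and IL-1 and TNF, acting through NF-κB and C/EBP factors, raise their transcription. Saa1 and Saa2 encode the main acute serum amyloids A of mouse liver, Saa3 is also made by macrophages and other cells outside the liver, and Saa4 is the constitutive family member. Apcs encodes serum amyloid P, the main acute pentraxin of the mouse, and Crp encodes C-reactive protein, which is a strong acute-phase protein in humans and a weak one in mice. Orm1 and Orm2 encode α1-acid glycoproteins (orosomucoids), Lcn2 encodes lipocalin-2, which binds bacterial siderophores and is made by neutrophils as well as hepatocytes, and Hp encodes haptoglobin, the carrier of free hemoglobin.

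In GENCODE vM21 (GRCm38), Saa1 to Saa4 lie together on chromosome 7 between 46711998 and 46754313, a span of 42316 bases. Orm1 and Orm2 are neighbours on chromosome 4 between 63344560 and 63365878. Crp and Apcs both lie on chromosome 1 between 172698055 and 172895041, Lcn2 lies on chromosome 2 at 32384633 to 32388252, and Hp lies on chromosome 8 at 109575128 to 109579172. All 10 are protein-coding. The Saa1 and Saa2 transcripts share 1151 stretches of 31 bases, 46.8% of those of Saa1 being found in another gene, and Orm1 and Orm2 share 205. Reads within such stretches could come from either gene of a pair. All deposited values of the members were whole, so no division of reads into fractions was visible. Whether reads were assigned to the right gene of a pair was not tested. Of the 31-base stretches of Saa3, 7.44% were found in another gene, and for Saa4, Apcs, Crp, Lcn2 and Hp the share was 1.58% or less.

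Promoters of 8 of the 10 members (250 bases before to 50 after the start of transcription) were read from RefSeq (GRCm38.p6); Orm1 and Hp were not among them. Those of Saa1, Saa2, Saa3 and Orm2 are shown because these genes moved together, and that of Lcn2 because it moved differently. Capitals mark matches on either strand to TTNNGNAA, the core letters of a C/EBP motif, and a match on the other strand is written as its letters stand in the printed sequence.
Saa1 promoter, chr7:46742931-46743230, minus strand: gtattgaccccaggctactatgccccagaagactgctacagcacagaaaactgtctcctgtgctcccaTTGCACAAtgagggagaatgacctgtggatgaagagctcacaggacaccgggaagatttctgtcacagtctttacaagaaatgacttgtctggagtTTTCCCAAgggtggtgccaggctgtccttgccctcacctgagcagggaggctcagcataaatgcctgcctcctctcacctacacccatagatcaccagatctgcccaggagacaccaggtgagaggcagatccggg
Saa2 promoter, chr7:46751583-46751882, plus strand: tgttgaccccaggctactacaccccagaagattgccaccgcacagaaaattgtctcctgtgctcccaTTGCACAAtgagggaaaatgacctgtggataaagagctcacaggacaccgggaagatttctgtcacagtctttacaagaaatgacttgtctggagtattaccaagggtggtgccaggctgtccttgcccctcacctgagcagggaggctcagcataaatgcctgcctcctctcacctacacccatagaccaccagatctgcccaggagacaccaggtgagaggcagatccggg
Saa3 promoter, chr7:46715627-46715926, minus strand: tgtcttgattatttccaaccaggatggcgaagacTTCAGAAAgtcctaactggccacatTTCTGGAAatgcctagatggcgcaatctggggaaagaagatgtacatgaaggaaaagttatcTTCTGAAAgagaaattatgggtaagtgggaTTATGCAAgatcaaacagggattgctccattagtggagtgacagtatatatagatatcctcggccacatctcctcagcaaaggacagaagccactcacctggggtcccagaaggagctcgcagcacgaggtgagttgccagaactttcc
Orm2 promoter, chr4:63362199-63362498, plus strand: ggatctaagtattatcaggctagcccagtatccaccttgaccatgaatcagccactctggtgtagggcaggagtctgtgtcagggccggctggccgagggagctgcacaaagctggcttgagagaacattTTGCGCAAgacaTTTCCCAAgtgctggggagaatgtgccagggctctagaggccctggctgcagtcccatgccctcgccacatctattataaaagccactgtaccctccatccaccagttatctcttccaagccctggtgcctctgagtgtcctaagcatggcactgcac
Lcn2 promoter, chr2:32387690-32387989, minus strand: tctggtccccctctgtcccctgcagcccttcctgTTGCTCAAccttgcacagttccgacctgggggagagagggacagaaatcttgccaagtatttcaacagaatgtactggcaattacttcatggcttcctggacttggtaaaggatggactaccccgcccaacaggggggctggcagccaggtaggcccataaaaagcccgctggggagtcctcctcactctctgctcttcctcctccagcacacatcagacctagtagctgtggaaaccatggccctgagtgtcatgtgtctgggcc
The Saa1 and Saa2 promoters are identical at 287 of 300 aligned bases and share the match TTGCACAA, whereas a second match in Saa1, TTTCCCAA, is not in Saa2. The Saa3 promoter holds 4 matches and that of Orm2 holds TTTCCCAA and the palindrome TTGCGCAA, which matches on both strands. Of the 8 promoters, 7 held at least 1 match, against 40.7% of all 32851 promoters of the same length. GGANTTTCC, the letters searched for NF-κB, was in none of the 8 and in 1.25% of all promoters, and TTCNNNGAA, searched for STAT, was in that of Apcs alone and in 8.30% of all promoters. No match of one motif overlapped a match of another. These are matches of letters in 300 bases and not measured sites.

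The libraries held 17164502 to 24305788 expected counts. Levels below are CPM, counts scaled to library size with TMM factors over the 22 libraries, unless TPM, which also allow for transcript length, are named. Hepatocyte genes were abundant in every liver, the 10 hepatocyte markers (among them Alb, Ttr and Apoa1) summing to 73245 to 147901 CPM, and none of the erythroid, neutrophil or macrophage markers was without counts in any group. In such bulk samples, fewer cells of a type and less RNA per cell cannot be told apart. Gm47283, a gene of the Y chromosome chosen after its values were seen, had no count in 9 livers and 164 to 603 counts in the other 13. It was without a count in all 3 livers with rAAV9.CB.ST3GAL5, in 3 of 4 with rAAV9.CB.EGFP, in 2 of 4 with rAAV9.Syn1.ST3GAL5.miR122BS and in 1 of 4 with AAV9.empty, and had counts in every liver with PBS or rAAV9.CB.ST3GAL5.E332K. All of these counts were fractional as deposited, so they include reads that RSEM divided among genes. Whether a liver without a count lacks the transcript, or had its reads assigned elsewhere, was not tested. The difference between rAAV9.CB.ST3GAL5 and rAAV9.CB.ST3GAL5.E332K and whatever Gm47283 marks therefore cannot be told apart. Other genes of the Y chromosome (Ddx3y, Eif2s3y, Kdm5d and Uty) had at least 94 counts each in all 22 livers, which the labels give as male. Within rAAV9.CB.ST3GAL5, replicate 2 was the highest of the 3 livers for 10 of 10 members.

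The members spanned a wide range in the vehicle-injected livers. By mean TPM in the PBS livers, Hp was the most abundant, with 3919 to 4354 TPM in the 4 livers, followed by Apcs with 969 to 1228, Lcn2 with 222 to 263, Crp with 118 to 131 and Saa4 with 13.8 to 19.4. Saa3 had 1.15 to 5.75 TPM, Orm1 1.39 to 2.52, Saa1 0 to 1.51, Saa2 0 to 0.82 and Orm2 0 to 0.30, and the ranges of Saa3 and Orm1, of Orm1 and Saa1 and of Saa1, Saa2 and Orm2 overlapped. The 5 genes at the foot of this order were those that were high with both CB-driven ST3GAL5 vectors. Lcn2, near the head of the order, was high with rAAV9.CB.ST3GAL5 only.

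**Figure D1:**
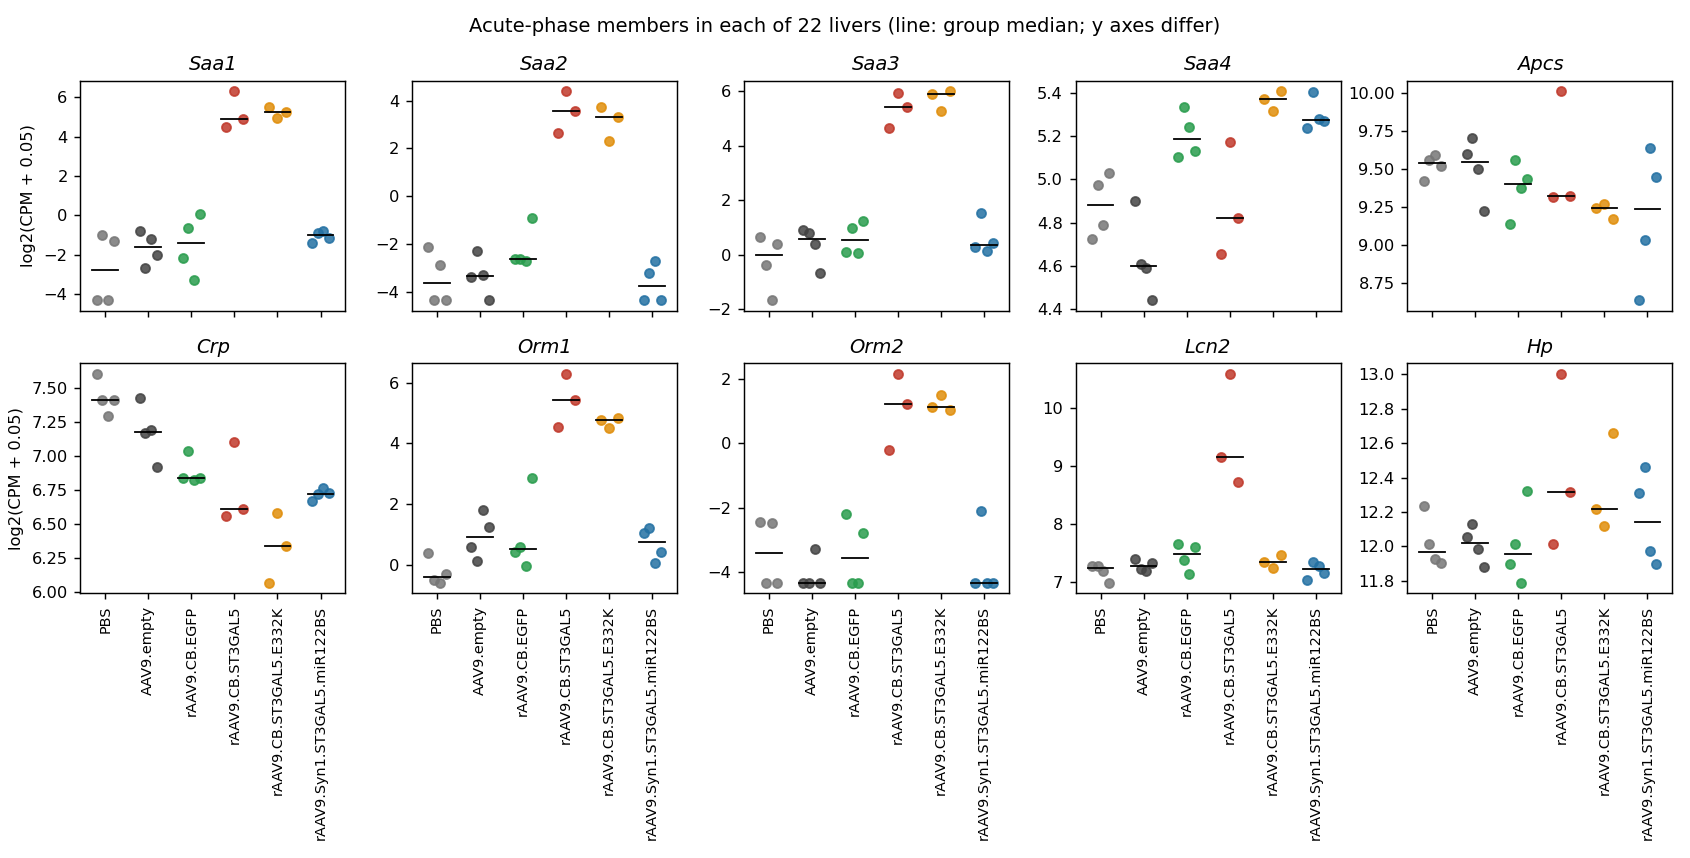
Level of each of the 10 members in each of 22 livers, as log2(CPM + 0.05) on the y axis (a separate scale for each gene) by group on the x axis. Each point is a liver and each line a group median. Saa1, Saa2, Saa3, Orm1 and Orm2 are high in all 6 livers of rAAV9.CB.ST3GAL5 and rAAV9.CB.ST3GAL5.E332K, and Lcn2 is high in the 3 livers of rAAV9.CB.ST3GAL5.

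Against AAV9.empty, which separates the vector genome and its cargo from the capsid, 6 of the 10 members rose with rAAV9.CB.ST3GAL5 and none fell, at an adjusted p of at most 0.05. Over all genes tested in this comparison, 13.8% were higher and 14.3% were lower. The 6 were Saa1, Saa2, Saa3, Orm1, Orm2 and Lcn2, and none of their values overlapped between the groups. The share of all genes without overlap was not computed, for this or any later comparison. With rAAV9.CB.ST3GAL5.E332K, where 7.93% of genes were higher and 7.09% lower, 6 members rose and 1 fell: Saa1, Saa2, Saa3, Saa4, Orm1 and Orm2 rose and Crp fell. Both comparisons share the AAV9.empty livers. Saa1, Saa2 and Orm2 passed the filter on low counts only in comparisons that include one of these 2 vectors, so they entered the tests through the groups in which they are high.

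Saa1, the acute serum amyloid A carried on high-density lipoprotein, was measured at 22.6, 78.7 and 30.2 CPM with rAAV9.CB.ST3GAL5 and at 45.4, 30.4 and 38.4 CPM with rAAV9.CB.ST3GAL5.E332K. In the AAV9.empty livers it was at 0.514, 0.105, 0.378 and 0.194 CPM, which is 24 counts over the 4 libraries. All 6 livers with a CB-driven ST3GAL5 cargo therefore lay above every AAV9.empty liver, and the ranges of the 2 vectors overlapped. The log2 difference from AAV9.empty was 7.17 ± 0.57 (SE) with rAAV9.CB.ST3GAL5 (144-fold, adjusted p = 0.000135) and 6.94 ± 0.25 with rAAV9.CB.ST3GAL5.E332K (123-fold, adjusted p = 1.66e-08). Without replicate 2, the difference with rAAV9.CB.ST3GAL5 was 6.43.

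Saa2, the close copy of Saa1, followed it. Its levels were 6.23, 20.7 and 11.8 CPM with rAAV9.CB.ST3GAL5 and 13.4, 4.98 and 9.83 CPM with rAAV9.CB.ST3GAL5.E332K, against 0.0467, 0.157, 0.0540 and 0 CPM with AAV9.empty. The AAV9.empty values stand for 5 counts in all, so the size of the fold is loosely set. The log2 difference was 7.56 ± 0.61 (adjusted p = 0.000135) with the first vector and 7.07 ± 0.51 (adjusted p = 3.03e-06) with the second. Without AAV9.empty replicate 2, which holds 3 of the 5 counts, these became 8.37 and 7.89, with both still called.

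Saa3, the family member that macrophages also make, had the highest resting level of the 3 acute serum amyloids. It reached 25.2, 61.4 and 42.5 CPM with rAAV9.CB.ST3GAL5 and 60.4, 38.9 and 63.8 CPM with rAAV9.CB.ST3GAL5.E332K, and lay at 1.82, 1.67, 1.24 and 0.583 CPM with AAV9.empty. The groups did not overlap. The log2 difference was 5.02 ± 0.37 (32.5-fold, adjusted p = 9.64e-05) and 5.33 ± 0.25 (40.3-fold, adjusted p = 8.58e-08). In TPM, Saa1, Saa2 and Saa3 together reached 202 to 559 with rAAV9.CB.ST3GAL5 and 250.2 to 401 with rAAV9.CB.ST3GAL5.E332K, and 2.89 to 9.28 with AAV9.empty.

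Orm1, the more abundant orosomucoid here, was at 22.9, 77.9 and 42.9 CPM with rAAV9.CB.ST3GAL5, at 27.0, 22.5 and 28.4 CPM with rAAV9.CB.ST3GAL5.E332K and at 1.45, 1.05, 3.40 and 2.33 CPM with AAV9.empty. Every liver of both vectors lay above the AAV9.empty livers. The log2 difference was 4.56 ± 0.46 (23.6-fold, adjusted p = 0.000241) and 3.65 ± 0.26 (12.6-fold, adjusted p = 2.72e-06).

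Orm2, its neighbour, had 17, 90 and 56 counts with rAAV9.CB.ST3GAL5, 43, 56 and 33 with rAAV9.CB.ST3GAL5.E332K, and 0, 0, 1 and 0 with AAV9.empty. Against this single count the ratio of the pooled rates was 214 (95% exact interval 37.9 to 8499, counting error only) for the first vector and 181 (32.0 to 7210) for the second. The test called both, with adjusted p = 0.000855 and 2.00e-05, and the fitted fold of such a gene depends on the prior count: 7.08 and 6.93 on the log2 scale, 8.74 and 8.51 without AAV9.empty replicate 3, which holds the single count, and 6.39 for the first vector without its replicate 2. With limma they were 5.30 and 5.27 on log2(TPM + 0.1) and 2.51 and 2.45 on log2(TPM + 1), all called, and with Gm47283 detection as a covariate the call for the first vector was lost (8.71, adjusted p = 0.0585). The counts did not overlap between AAV9.empty and either vector.

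Lcn2, the siderophore-binding lipocalin, separated the 2 cargoes. It was at 576, 1545 and 426 CPM with rAAV9.CB.ST3GAL5, and at 164, 152 and 178 CPM with rAAV9.CB.ST3GAL5.E332K, where the AAV9.empty livers had 170, 149, 147 and 161. The rAAV9.CB.ST3GAL5 livers lay above all 19 others, and the rAAV9.CB.ST3GAL5.E332K livers overlapped those of AAV9.empty. The log2 difference from AAV9.empty was 2.45 ± 0.37 (5.47-fold, adjusted p = 0.00158) with rAAV9.CB.ST3GAL5 and 0.06 ± 0.09 (adjusted p = 0.722) with rAAV9.CB.ST3GAL5.E332K. Replicate 2 of rAAV9.CB.ST3GAL5 set much of the size, since without it the difference was 1.68 (adjusted p = 1.83e-05). With Gm47283 detection as a covariate, a fit that rests on AAV9.empty replicate 4, the call was lost (2.41, adjusted p = 0.0902).

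**Figure D2:**
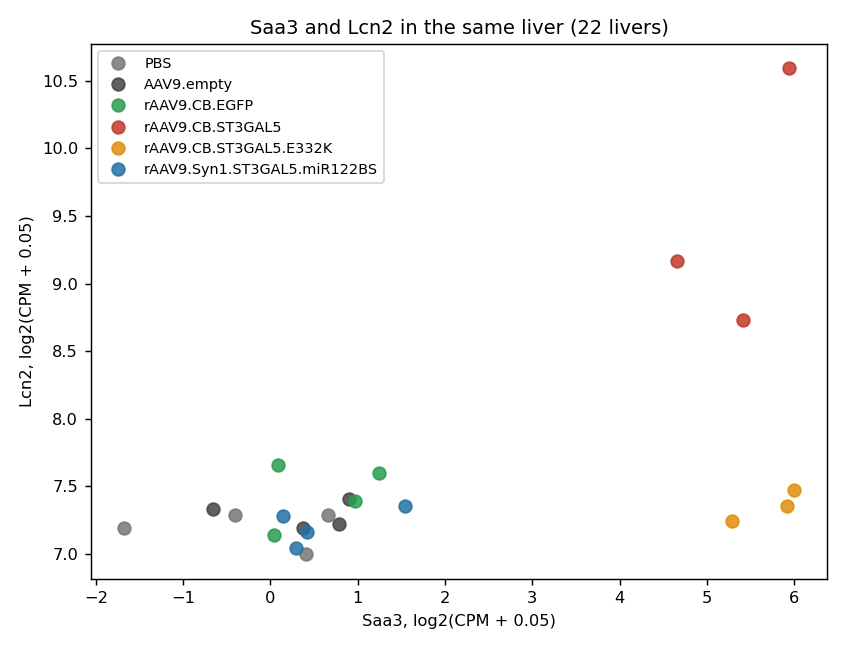
Saa3 on the x axis against Lcn2 on the y axis, both as log2(CPM + 0.05), with 1 point for each of 22 livers colored by group. The 6 livers with a CB-driven ST3GAL5 cargo share high Saa3 (25.2 to 63.8 CPM), and of these the 3 with rAAV9.CB.ST3GAL5 have 426 to 1545 CPM of Lcn2 and the 3 with rAAV9.CB.ST3GAL5.E332K have 152 to 178 CPM.

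Hp, Apcs, Crp and Saa4 differed less. Hp, the hemoglobin carrier, was at 4141, 8211 and 5106 CPM with rAAV9.CB.ST3GAL5 and at 4753, 4449 and 6464 CPM with rAAV9.CB.ST3GAL5.E332K, against 4248, 4482, 4046 and 3773 with AAV9.empty. Its groups overlapped, and the log2 differences of 0.51 ± 0.20 (adjusted p = 0.0872) and 0.33 ± 0.13 (adjusted p = 0.111) did not pass. With DESeq2 they did, at adjusted p = 0.0375 and 0.0485, and so did the first without rAAV9.CB.ST3GAL5 replicate 1 (0.0276) and the second without rAAV9.CB.ST3GAL5.E332K replicate 2 (0.0382). Apcs, serum amyloid P, had 638, 1033 and 641 CPM with rAAV9.CB.ST3GAL5, 605, 619 and 576 with rAAV9.CB.ST3GAL5.E332K and 598 to 833 with AAV9.empty, and its log2 differences were 0.09 ± 0.18 and −0.30 ± 0.11, neither called (adjusted p = 0.758 and 0.0946). The second passed without AAV9.empty replicate 4 (−0.39, adjusted p = 0.0297) and with DESeq2 (0.0417).

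Crp, the pentraxin that is a minor acute-phase protein in mice, was lowest with rAAV9.CB.ST3GAL5.E332K, at 67.0, 95.5 and 80.9 CPM, against 172, 143, 146 and 121 with AAV9.empty. These groups did not overlap. The log2 difference was −0.85 ± 0.14 (1.81-fold lower, adjusted p = 0.00158). With rAAV9.CB.ST3GAL5, Crp was at 94.2, 137 and 97.7 CPM, with a log2 difference of −0.40 ± 0.16 that did not pass (adjusted p = 0.0887) and that passed without replicate 2 (−0.59, adjusted p = 0.00714) and with DESeq2 (0.0449). Saa4, the constitutive serum amyloid, stood at 41.3, 39.8 and 42.3 CPM with rAAV9.CB.ST3GAL5.E332K and at 29.8, 24.4, 24.0 and 21.7 with AAV9.empty, a log2 difference of 0.71 ± 0.11 (adjusted p = 0.000969). With rAAV9.CB.ST3GAL5 it had 25.2, 36.0 and 28.2 CPM, and the difference of 0.27 ± 0.14 was not called.

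**Figure D3:**
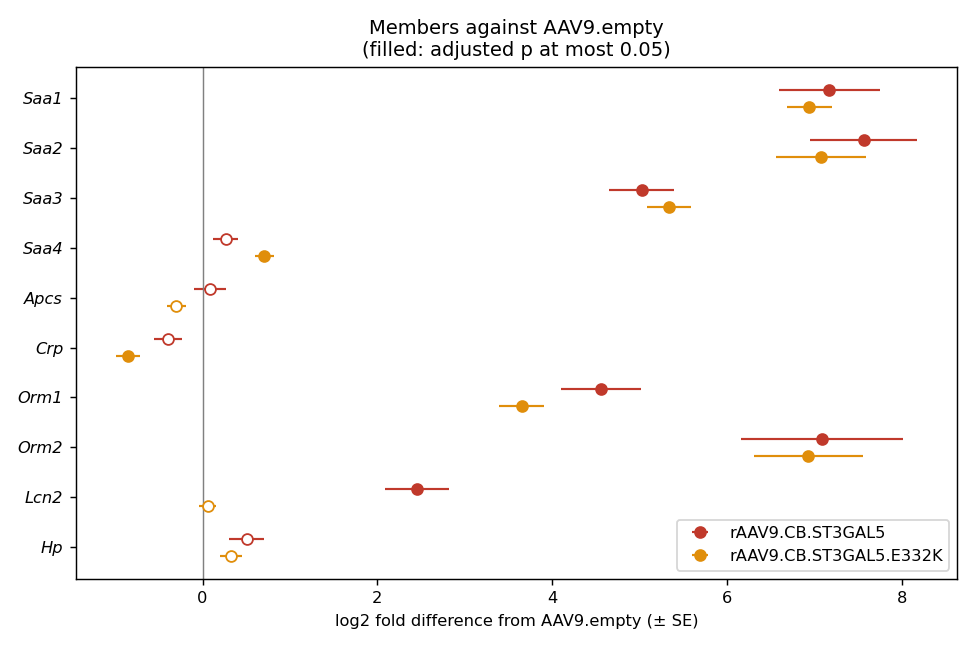
Log2 fold difference of each member from AAV9.empty (x axis, with SE as bars), for rAAV9.CB.ST3GAL5 and rAAV9.CB.ST3GAL5.E332K, n = 3 against 4 in each; filled points passed an adjusted p of 0.05. Saa1, Saa2, Saa3, Orm1 and Orm2 lie far to the right for both vectors, whereas Lcn2 is at 2.45 for the first and 0.06 for the second.

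Compared directly, which holds the promoter constant and changes the E332K label, the 2 vectors differed in 1 of 10 members. In this comparison 9.55% of all genes were higher and 10% lower with rAAV9.CB.ST3GAL5. Lcn2 was 5.29-fold higher with rAAV9.CB.ST3GAL5, a log2 difference of 2.40 ± 0.43 (adjusted p = 0.0102), and higher in 3 of 3 livers. Without rAAV9.CB.ST3GAL5.E332K replicate 3 the adjusted p was 0.0509, and without rAAV9.CB.ST3GAL5 replicate 2 the difference was 1.65 (adjusted p = 0.000399). The log2 differences of Saa1 (0.23 ± 0.41), Saa2 (0.49 ± 0.45), Saa3 (−0.31 ± 0.30) and Orm2 (0.13 ± 0.50) were within about their SE and did not pass, which with 3 livers a group does not show that the levels were alike. Orm1 was 0.92 ± 0.37 higher with rAAV9.CB.ST3GAL5 and Crp 0.47 ± 0.18 higher, and Saa4 was 0.43 lower (−0.43 ± 0.14), with adjusted p = 0.107, 0.103 and 0.0645. Orm1 passed without rAAV9.CB.ST3GAL5 replicate 1 (1.26, adjusted p = 0.038) and Saa4 without rAAV9.CB.ST3GAL5 replicate 2 (−0.59, 0.0113).

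The other cargo behind the same promoter left the acute members low. With rAAV9.CB.EGFP against AAV9.empty, where 0.387% of genes were higher and 0.0553% lower, 1 of the 7 members tested was called, and Saa1, Saa2 and Orm2 were below the filter. The member was Saa4, at 34.3, 40.2, 37.8 and 35.0 CPM, above every AAV9.empty liver (log2 difference 0.56 ± 0.10, adjusted p = 0.0149). This call was lost without replicate 2 of AAV9.empty (adjusted p = 0.0585), replicate 3 of AAV9.empty (0.0588), replicate 2 of rAAV9.CB.EGFP (0.0796) or replicate 3 of rAAV9.CB.EGFP (0.0546). Saa1 had 3, 10, 1 and 21 counts in the rAAV9.CB.EGFP livers and Saa3 had 1.01, 1.90, 0.979 and 2.31 CPM. Orm1 was at 1.29, 1.44, 0.927 and 7.13 CPM, so replicate 4 stood above the rest, and its log2 difference of 0.41 ± 0.57 became −0.75 without that liver.

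Set directly against rAAV9.CB.EGFP, rAAV9.CB.ST3GAL5 raised Saa1, Saa2, Saa3, Orm1, Orm2 and Lcn2 (6 of 10 members, with 12.7% of genes higher and 15.1% lower). Saa1 was 6.55 ± 0.64 higher on the log2 scale, Saa3 4.78 ± 0.36, Orm1 4.11 ± 0.65 and Lcn2 2.27 ± 0.38, with adjusted p of 0.000427, 0.000276, 0.00238 and 0.00316. Without rAAV9.CB.EGFP replicate 4 the values for Saa1, Saa2 and Orm1 were 7.38, 6.80 and 5.30. Without rAAV9.CB.ST3GAL5 replicate 2 those for Saa1, Orm2 and Lcn2 were 5.82, 4.43 and 1.51, and Saa4 (−0.46) and Crp (−0.29) passed as lower, with adjusted p = 0.00678 and 0.0296. Orm2, at 5.11 ± 0.83, became 5.94 without rAAV9.CB.EGFP replicate 1. For rAAV9.CB.ST3GAL5.E332K against rAAV9.CB.EGFP, 4.25% of genes were higher and 3.65% lower, and 5 members rose and 1 fell. Saa1 (6.33 ± 0.35), Saa2 (5.42 ± 0.46), Saa3 (5.10 ± 0.25), Orm1 (3.22 ± 0.46) and Orm2 (4.99 ± 0.58) rose, Crp fell (−0.55 ± 0.12, adjusted p = 0.0144), and Lcn2 was at −0.11 ± 0.12 and was not called. The Orm1 call was lost with a robust dispersion (adjusted p = 0.0537), and the Crp call without rAAV9.CB.ST3GAL5.E332K replicate 1 (adjusted p = 0.0501), with limma on log2(TPM + 0.1) without a filter (0.0954) and with Gm47283 detection as a covariate (0.225). Without rAAV9.CB.EGFP replicate 4, Saa1, Saa2 and Orm1 were at 7.16, 6.32 and 4.40, and without its replicate 1 Orm2 was at 5.81.

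With the liver-detargeted design, rAAV9.Syn1.ST3GAL5.miR122BS, the acute members stayed near the AAV9.empty levels. Saa1 had 6, 8, 10 and 8 counts, Saa2 0, 1, 2 and 0 and Orm2 0, 3, 0 and 0, and these 3 genes were below the filter. Of the 7 members tested against AAV9.empty, Saa4 rose and Crp fell, with 2.88% of genes higher and 2.50% lower. Saa4 was at 37.7, 42.3, 38.8 and 38.5 CPM (0.66 ± 0.10, adjusted p = 0.00325) and Crp at 102, 105, 108 and 106 CPM (−0.46 ± 0.10, adjusted p = 0.0193), both outside the range of the AAV9.empty livers. The Crp call was lost without replicate 1, 2 or 3 of AAV9.empty (adjusted p = 0.0557, 0.0572 and 0.0534) or replicate 1 of rAAV9.Syn1.ST3GAL5.miR122BS (0.0555). Lcn2, at 132, 164, 156 and 144 CPM, and Saa3, at 1.17, 2.87, 1.05 and 1.29 CPM, overlapped AAV9.empty.

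The same cargo in the 2 regulatory designs gave 6 members higher with rAAV9.CB.ST3GAL5 than with rAAV9.Syn1.ST3GAL5.miR122BS, beside 12.1% of genes higher and 11.3% lower. These were Saa1 (6.68 ± 0.52), Saa2 (8.14 ± 0.66), Saa3 (4.80 ± 0.38), Orm1 (4.90 ± 0.43), Orm2 and Lcn2 (2.54 ± 0.38), with adjusted p of 0.000261 for the first 3 genes and up to 0.00397 for the rest. Orm2 was set against 3 counts, and its pooled rate ratio was 66.0 (95% exact interval 22.2 to 324); that of Saa2, also against 3 counts, was 341 (116 to 1658). Without rAAV9.CB.ST3GAL5 replicate 2, the values for Saa1, Orm2 and Lcn2 were 5.93, 5.06 and 1.77 and Saa4 passed as lower (−0.54, adjusted p = 0.00963). Without replicate 2 of rAAV9.Syn1.ST3GAL5.miR122BS, which holds the 3 Orm2 counts, Orm2 was at 8.71 in place of 5.76, and without its replicate 3 Saa2 was at 9.07.

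For the capsid alone, AAV9.empty against PBS, 0.104% of genes were higher and 0.207% lower. None of the 7 members tested was called by edgeR, DESeq2 or limma, and 3 had an unadjusted p under 0.05 with edgeR. These were Orm1, at 1.05 to 3.40 CPM against 0.614 to 1.26 (log2 difference 1.31 ± 0.40, adjusted p = 0.172), Saa4 (−0.24 ± 0.11, adjusted p = 0.376) and Crp (−0.25 ± 0.10, adjusted p = 0.299). Each of the 3 overlapped between the groups.

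The genes that carry the acute-phase signal were examined as lists of known members. Of 13 inducing cytokines and receptors tested, 10 were higher and 2 lower with rAAV9.CB.ST3GAL5 against AAV9.empty, with a median log2 difference of 1.89 where the median of all genes was 0.02. Over all genes, 13.8% were higher and 14.3% lower. Of the 15 genes of this list, the filter passed 13 here, 12 with rAAV9.CB.ST3GAL5.E332K and 11 for AAV9.empty against PBS. A gene could thus enter the tests through the group in which it is high, and the median is taken over those that entered. Lif, a cytokine of the IL-6 family, rose by 5.99 ± 0.34, from 0.162 to 0.471 CPM in the AAV9.empty livers to 12.8 to 24.0 CPM. Osmr, the oncostatin M receptor, rose by 2.92 ± 0.28, Il1r1, the IL-1 receptor, by 1.21 ± 0.13, and Il6st, the shared signal-transducing chain gp130, by 0.98 ± 0.13. Il6ra, the ligand-binding chain for IL-6, and Il1rap, the accessory chain of the IL-1 receptor, fell by 0.67 and 0.57.

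With rAAV9.CB.ST3GAL5.E332K, 1 of 12 genes of this list was higher and 1 lower. These counts are near the shares of all genes, 7.93% higher and 7.09% lower. Lif rose by 3.82 ± 0.37 (adjusted p = 3.84e-05), to 3.09 to 5.04 CPM, and Il6ra fell by 0.55. Osmr (0.35 ± 0.20), Il1b, the IL-1β gene (−0.14 ± 0.39), and Tnf (−0.22 ± 0.52) were not called, and Il6 itself was below the filter, with at most 0.123 CPM in any of the 3 livers. Lif was also higher than with AAV9.empty in the livers with rAAV9.CB.EGFP (1.34 to 2.63 CPM, log2 difference 2.78) and rAAV9.Syn1.ST3GAL5.miR122BS (2.38 to 3.16 CPM, 3.21), in which Saa3 was not called and Saa1 had 1 to 21 counts. Any part of Lif in the levels of the members was not tested.

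Of 12 transcription factors and feedback genes, 10 were higher and 2 lower with rAAV9.CB.ST3GAL5, beside 13.8% and 14.3% of all genes. Socs3, the feedback inhibitor that STAT3 induces, rose by 3.28 ± 0.27 (60.9 to 135 CPM against 7.02 to 12.2), Nfkbiz, an IκB family regulator, by 2.07 ± 0.19, Cebpd by 1.87 ± 0.21 and Cebpb by 2.05 ± 0.31, the last 2 encoding C/EBP factors. Cebpa and Hnf4a, which maintain hepatocyte genes, fell by 0.83 and 0.27. With rAAV9.CB.ST3GAL5.E332K none of the 12 was higher and Cebpa fell by 0.45 (adjusted p = 0.0158), beside 7.93% of all genes higher and 7.09% lower. Socs3 stood at 9.82 to 12.3 CPM in these livers, within the range of PBS and AAV9.empty (7.02 to 16.4), and its log2 difference was 0.22 ± 0.17.

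The direct comparison of the 2 vectors gave 9 of 13 cytokine and receptor genes higher and 1 lower, and 9 of 12 transcription factor and feedback genes higher and none lower, with rAAV9.CB.ST3GAL5. Socs3 differed by 3.07 (adjusted p = 0.00217), Lif by 2.18 (0.00403), Osmr by 2.58 (0.00388) and Cebpb by 1.84 (0.0122). The lower gene was Il1rap (−0.55). Without rAAV9.CB.ST3GAL5.E332K replicate 3 the counts of higher genes were 6 and 4, without rAAV9.CB.ST3GAL5.E332K replicate 2 the second was 5, and without rAAV9.CB.ST3GAL5 replicate 2 they were 9 and 9. In this direct comparison Lcn2 was called with them, and Saa1, Saa2, Saa3, Orm1 and Orm2 were not. With Gm47283 detection as a covariate, the counts of higher genes for rAAV9.CB.ST3GAL5 against AAV9.empty were 4 and 3 in place of 10 and 10, and none was lower.

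**Figure D4:**
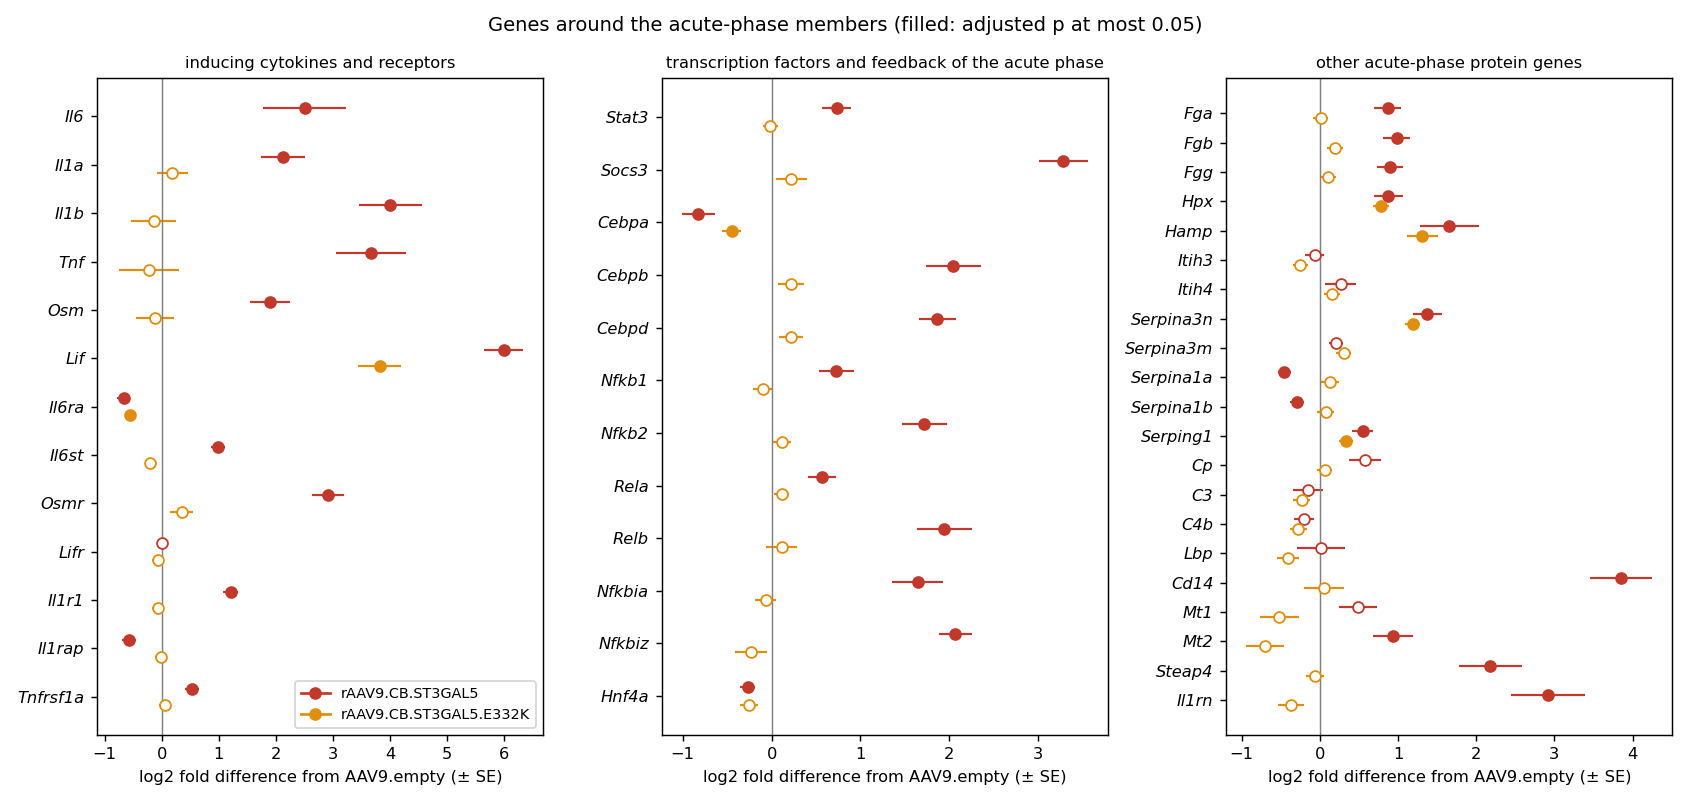
Log2 fold difference from AAV9.empty (x axis, with SE as bars) of the genes of 3 lists, for rAAV9.CB.ST3GAL5 and rAAV9.CB.ST3GAL5.E332K; filled points passed an adjusted p of 0.05, and genes below the filter are not drawn. Most cytokine, receptor and transcription factor genes are filled for the first vector and open for the second, with Lif, Il6ra and Cebpa filled for both.

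The 21 other acute-phase protein genes were examined in the same comparisons. With rAAV9.CB.ST3GAL5, 11 were higher and 2 lower than with AAV9.empty, with a median log2 difference of 0.58. Cd14, the lipopolysaccharide co-receptor, rose by 3.85 ± 0.40, Il1rn, the IL-1 receptor antagonist, by 2.92 ± 0.47, Serpina3n, a serine protease inhibitor, by 1.38 ± 0.18 and Fgb, a fibrinogen chain, by 0.99 ± 0.17. The lower genes were Serpina1a and Serpina1b, which encode α1-antitrypsins (−0.45 and −0.30). With Gm47283 detection as a covariate 2 were higher and none lower. With rAAV9.CB.ST3GAL5.E332K, 4 were higher, and these were Serpina3n (1.19 ± 0.10), Hamp, the iron hormone hepcidin (1.31 ± 0.19), Hpx, the heme carrier hemopexin (0.78 ± 0.10), and Serping1, the C1 inhibitor (0.34 ± 0.09). Fgb (0.19 ± 0.10), Cd14 (0.05 ± 0.26) and Il1rn (−0.36 ± 0.17) were not called there. Between the vectors, 8 of 21 were higher and Serpina1a lower with rAAV9.CB.ST3GAL5, with Serpina3n (0.20) and Hpx (0.10) not called. The count of higher genes was 5 without rAAV9.CB.ST3GAL5 replicate 1, and 3, 4 and 2 without replicate 1, 2 or 3 of rAAV9.CB.ST3GAL5.E332K.

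The negative acute-phase genes, whose plasma proteins decline in the acute phase, were lower with rAAV9.CB.ST3GAL5 for 9 of 12 and higher for none, with a median of −0.60. Igf1, which encodes insulin-like growth factor 1, fell by 1.27 (SE 0.14), Ttr (transthyretin) by 0.71, and Apoa2 and Apoa1, the apolipoproteins of high-density lipoprotein, by 0.66 and 0.65. With Gm47283 detection as a covariate 1 was lower, and with limma on log2(TPM + 0.1) without a filter 3 were. With rAAV9.CB.ST3GAL5.E332K, Igf1 (−1.76), Serpina6 (−1.05, corticosteroid-binding globulin) and Alb (−0.54) fell, and Rbp4 (0.41, the retinol carrier) and F12 (0.37, coagulation factor XII) rose, with a median of 0.00. Without replicate 3 of that vector 1 gene rose and 2 fell. Directly compared, 8 of 12 were lower with rAAV9.CB.ST3GAL5. This count was 2 without replicate 1 and 5 without replicate 3 of rAAV9.CB.ST3GAL5, 2 without replicate 1 or 3 of rAAV9.CB.ST3GAL5.E332K, 3 with limma on log2(TPM + 1) or log2(TPM + 0.1) and 0 on the latter without a filter.

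Markers of other cells moved with some of these values. The marker counts below stand beside 13.8% of all genes higher and 14.3% lower with rAAV9.CB.ST3GAL5 against AAV9.empty. For rAAV9.CB.ST3GAL5.E332K against AAV9.empty the shares were 7.93% and 7.09%. Of 16 neutrophil markers, 14 were higher with rAAV9.CB.ST3GAL5 than with AAV9.empty, led by Csf3r (1.25), Cxcr2 (1.34), S100a9 (0.80) and S100a8 (0.80), and the summed level of the list was 2753 to 3056 CPM against 1829 to 1999. With Gm47283 detection as a covariate 3 of the 16 were higher. With rAAV9.CB.ST3GAL5.E332K it was 2203 to 2726 CPM, and 5 markers (S100a8, S100a9, Mpo, Ngp and Camp) were higher and Mmp8 was lower, against 2 higher without replicate 1 or 3 of that vector or without any 1 of the 4 AAV9.empty livers, and 1 to 6 under the other alternatives run. Neutrophils make Lcn2, and the part of these cells in the Lcn2 difference was not tested. The summed level was 1925 to 2147 CPM with PBS, 1972 to 2764 with rAAV9.CB.EGFP and 1584 to 2367 with rAAV9.Syn1.ST3GAL5.miR122BS. Of 11 macrophage and Kupffer cell markers, 3 were higher (Itgam, Ly6c2 and Ccr2) and 4 lower (Clec4f, Csf1r, Vsig4 and Timd4) with rAAV9.CB.ST3GAL5, and Ly6c2 was higher and Clec4f, Csf1r and Timd4 lower with rAAV9.CB.ST3GAL5.E332K. The summed level was 846 to 1185, 766 to 943 and 959 to 1351 CPM with the first vector, the second and AAV9.empty, and the part of macrophages in the level of Saa3 was not tested. Of the 10 hepatocyte markers, 9 were lower and Fgb higher with rAAV9.CB.ST3GAL5, at a summed 73245 to 88335 CPM against 107205 to 128478; 2 were lower with limma on log2(TPM + 0.1) without a filter, and none was called with Gm47283 detection as a covariate. Alb, Apob and Cps1 were lower with rAAV9.CB.ST3GAL5.E332K. Of this list, Alb, Ttr, Apoa1 and Ahsg are also negative acute-phase genes, and Fgb and Serpina1a are also among the other acute-phase protein genes. The counts of these lists are therefore not independent of each other. Of 8 erythroid markers, Epb42 and Slc4a1 were higher with the first vector and Klf1 with the second; their sum in rAAV9.CB.ST3GAL5.E332K replicate 3 (21847 CPM) was the lowest of its group, and without that liver all 8 were higher.

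Across the 22 livers, the genes most like a member in log2 CPM, among 13517 genes with a mean of at least 1 CPM, were chosen by Pearson's r. For Saa1 they were Saa3 (r = 0.98), Saa2 (0.98) and Orm1 (0.96), for Saa3 they were Saa1 (0.98), Saa2 (0.97) and Orm1 (0.95), and for Orm1 they were Saa1 (0.96), Saa2 (0.96) and Saa3 (0.95). Lcn2 was instead most like Ch25h (0.98), a cholesterol 25-hydroxylase, Mmp13 (0.98), a collagenase, and Efhd2 (0.97), none of them members. Mmp13 was at 3.25 to 36.4 CPM with rAAV9.CB.ST3GAL5 and at 0.123 to 0.249 CPM with rAAV9.CB.ST3GAL5.E332K. Ch25h was at 1.87 to 17.1 CPM with rAAV9.CB.ST3GAL5 and at most 0.101 CPM in any other liver. By ranks (Spearman's rho), the likeness to Lcn2 was 0.45 for Ch25h, 0.38 for Mmp13 and 0.73 for Efhd2. Hp was most like Kars (0.87), a lysyl-tRNA synthetase, Tmem176b (0.86) and Serping1 (0.84). These coefficients describe livers that fall into groups with high and low values, share the depth of each library, and mostly record which groups were high.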

How the data were processed

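Liver RNA of 22 mice was sequenced by the study as poly(A)-selected libraries. Per the submitters' processing notes and the paper's methods, the authors trimmed reads with Trimmomatic, aligned them to mm10 with STAR and quantified GENCODE genes with RSEM; versions are not given in the sources used here. The authors deposited expected counts, estimated by RSEM for each gene and not scaled for depth, and TPM values, which are scaled to transcript length and library depth. RSEM can divide reads shared by near-identical genes into fractions. All 220 values of the members were whole, so no such fractions were visible for Saa1, Saa2, Orm1 or Orm2.

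Expected counts were rounded (all 220 values of the members were whole as deposited) and each of 9 pairs of groups was fitted in R 4.3.3 with edgeR 4.0.16 (TMM, filterByExpr and the quasi-likelihood F-test). P-values were adjusted by Benjamini-Hochberg across every gene tested in the pair, and a gene was called at an adjusted p of at most 0.05. Log2 differences are given with an SE, taken as the absolute log2 difference divided by the square root of its F statistic. This SE follows from the test and the fitted fold and was not estimated separately. Some of the fits were also run on simulated counts with a dispersion fixed for all genes. Such counts cannot show how the fits behave at the spread of these livers. Exact binomial intervals (95%) on pooled counts cover counting error only. Levels are CPM with TMM factors; likeness used log2(CPM + 0.5). Positions come from GENCODE vM21 and promoters from RefSeq (GRCm38.p6), aligned with Biopython 1.88.

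The members and the gene lists were chosen with earlier results of these data known, and 1 gene of the list of transcription factors and feedback genes is not reported here. The text names all 10 members, up to 4 genes of a list with the smallest adjusted p for rAAV9.CB.ST3GAL5 against AAV9.empty, the genes beside counts of 5 or fewer and the 3 genes most like Saa1, Saa3, Lcn2, Orm1 and Hp; further list genes (Il1b, Tnf, Il6, Hpx, Serpina3n and those named again in a later comparison) were chosen after their values were seen. Alternatives were DESeq2 1.42.0, median-of-ratios factors, no filter, a minimum mean count of 10, a joint fit of all 6 groups, a block for the replicate number, robust dispersion, limma 3.58.1 on log2(TPM + 1) and on log2(TPM + 0.1) with and without a filter at a mean TPM of 1, a fold of at least 2, each library left out and, added once the data had been seen, Gm47283 detection as a covariate and the list counts under these alternatives. No 2 libraries of a group were alike within sampling noise (chi-square per degree of freedom 7.45 to 71.6 over 30 pairs).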

Additional observations from a re-analysis of the deposited data

Results flagged for a closer look

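In groups of 4 livers, 6 of the 40 combinations of a member and a group held a liver far from the other 3, where chance gives about 1 in 20 for continuous values. For Orm2 a single liver with a count meets this mark by construction, so that rate does not apply to its 2 entries. Replicate 4 of rAAV9.CB.EGFP was far above the rest for Orm1, at 7.13 CPM with the next liver at 1.44, and for Saa2, at 0.482 CPM with the next at 0.115. Saa1 and Saa3 were also highest in that liver, and Hp was at 5122 CPM. Replicate 2 of rAAV9.CB.EGFP stood out for Crp at 131 CPM, with the next liver at 114. Replicate 2 of rAAV9.Syn1.ST3GAL5.miR122BS stood out for Saa3 at 2.87 CPM, with the next at 1.29, and for Orm2 at 0.183 CPM (3 counts, the other livers having none). Replicate 3 of AAV9.empty stood out for Orm2 at 0.0540 CPM, which is 1 count. Groups of 3 livers were not examined in this way.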

How the results depend on the processing

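The counts of members called stayed within 1.5 times the main count under every alternative run for rAAV9.CB.ST3GAL5 against AAV9.empty (4 to 8 of 10), rAAV9.CB.EGFP (6 to 8) and rAAV9.Syn1.ST3GAL5.miR122BS (6 to 7), for rAAV9.CB.ST3GAL5.E332K against AAV9.empty (5 to 9) and rAAV9.CB.EGFP (5 to 6), and for AAV9.empty against PBS (0). For rAAV9.CB.EGFP against AAV9.empty the count of 1 became 0 with a fold of at least 2 and with limma on log2(TPM + 1) or log2(TPM + 0.1), filtered or not, and was 0 to 1 with 1 library left out. For rAAV9.Syn1.ST3GAL5.miR122BS against AAV9.empty the count of 2 became 0 with a fold of at least 2 and was 1 to 2 with 1 library left out. For rAAV9.CB.ST3GAL5 against rAAV9.CB.ST3GAL5.E332K the count of 1 became 2 with no filter (Orm1 added), 3 with all 6 groups in one fit (Saa4 and Crp added) and 0 to 2 with 1 library left out. The cause of these changes was not tested, beyond the fewer samples or the stricter threshold that some of them set.

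Over 30 same-numbered pairs of livers the deviations from the group means correlated at −0.17 to 0.28, and in none of the 9 comparisons did every pair exceed 0.1. The livers were therefore fitted as unpaired. Differently numbered pairs were not computed as a baseline, and the labels do not say what the replicate numbers mean. This check therefore cannot decide whether some same-numbered livers share a litter or batch. With the replicate number as a block, the count for rAAV9.CB.ST3GAL5 against rAAV9.CB.ST3GAL5.E332K was 2 (Crp added) and the other counts were unchanged. Directions reversed with this block for Apcs, rAAV9.CB.ST3GAL5 against AAV9.empty (−0.037), Hp, rAAV9.CB.EGFP against AAV9.empty (−0.0029), and Orm2, rAAV9.CB.ST3GAL5 against rAAV9.CB.ST3GAL5.E332K (−0.063).

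Of 81 log2 differences, 47 kept direction and call under every alternative, and no called difference reversed. Log2(TPM + 1), log2(TPM + 0.1) and the latter with no filter reversed Lcn2 with rAAV9.CB.ST3GAL5.E332K against AAV9.empty (−0.056 in each), Hp with rAAV9.CB.EGFP against AAV9.empty (−0.044 in each), Hp with AAV9.empty against PBS (0.024 in each) and Crp with rAAV9.CB.ST3GAL5 against rAAV9.CB.EGFP (0.015 in each); log2(TPM + 0.1), filtered or not, reversed Orm1 with rAAV9.CB.EGFP against AAV9.empty (−0.036 in both). On the log2(TPM + 1) scale, Saa1 and Saa2 were at 6.09 and 5.01 for rAAV9.CB.ST3GAL5 and 5.93 and 4.43 for rAAV9.CB.ST3GAL5.E332K against AAV9.empty. On the log2(TPM + 0.1) scale the median of all genes shifted by −0.13 to 0.21 between comparisons. With 1 library left out, reversals gave ranges of −0.19 to 0.21 (Apcs, rAAV9.CB.ST3GAL5 against AAV9.empty), −0.035 to 0.42, −0.75 to 0.76 and −0.11 to 0.070 (Saa3, Orm1 and Hp, rAAV9.CB.EGFP against AAV9.empty), −0.17 to 0.45 and −0.54 to 0.019 (Saa3 and Orm1, rAAV9.Syn1.ST3GAL5.miR122BS against AAV9.empty), −0.078 to 0.076 and −0.051 to 0.060 (Apcs and Hp, AAV9.empty against PBS), −0.49 to 0.56, −0.022 to 0.84, −0.54 to 0.56 and −0.14 to 0.40 (Saa1, Saa2, Orm2 and Hp, rAAV9.CB.ST3GAL5 against rAAV9.CB.ST3GAL5.E332K), −0.060 to 0.34 and −0.29 to 0.0024 (Apcs and Crp, rAAV9.CB.ST3GAL5 against rAAV9.CB.EGFP) and −0.12 to 0.18 (Crp, rAAV9.CB.ST3GAL5 against rAAV9.Syn1.ST3GAL5.miR122BS).

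With Gm47283 detection as a covariate, an alternative added after the data were seen, the comparison of rAAV9.CB.ST3GAL5 with AAV9.empty rests on replicate 4 of AAV9.empty. That is the only AAV9.empty liver without a count of Gm47283. This covariate ended the calls of Lcn2 (2.41, adjusted p = 0.0902) and Orm2 (8.71, 0.0585) in that comparison. It added the call of Apcs for rAAV9.CB.ST3GAL5.E332K against AAV9.empty (−0.38, adjusted p = 0.0305) and moved Saa2 from 7.56 to 11.08 for rAAV9.CB.ST3GAL5 against AAV9.empty and Saa1 from 6.33 to 9.33 for rAAV9.CB.ST3GAL5.E332K against rAAV9.CB.EGFP. It also ended the Crp call for rAAV9.CB.ST3GAL5.E332K against rAAV9.CB.EGFP (−0.50, adjusted p = 0.225), and reversed Orm1 (−0.16) and Hp (−0.023) with rAAV9.CB.EGFP against AAV9.empty, Apcs (0.074) and Hp (0.029) with AAV9.empty against PBS, and Lcn2 with rAAV9.CB.ST3GAL5.E332K against rAAV9.CB.EGFP (0.19). No such fit could be made for rAAV9.CB.ST3GAL5 against rAAV9.CB.ST3GAL5.E332K. Depth limits Saa1, Saa2 and Orm2, which had 0 to 21 counts in each liver outside the CB-driven ST3GAL5 groups.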

Other observations

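Summed over the 10 members, the TPM were 5472 to 5716 in the PBS livers, 5254 to 6086 with AAV9.empty, 4967 to 6341 with rAAV9.CB.EGFP, 4894 to 6086 with rAAV9.Syn1.ST3GAL5.miR122BS, 5815 to 7429 with rAAV9.CB.ST3GAL5.E332K and 6996, 7995 and 13874 in the 3 livers with rAAV9.CB.ST3GAL5. Most of each sum was Hp and Apcs.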
